A study of Mus musculus with 20 samples.

Results

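A common effect of YAP1 knockout (KO) in proliferating and differentiating cells was measured by RNA sequencing. Neural stem cell cultures from the spinal cord of adult mice were used, with wild type (WT) cultures for comparison. All 8 labelled libraries with a column in the deposited table entered the comparison, of 20 samples that the labels name, while columns of 4 libraries that match no label were not used. The groups were KO proliferation, KO differentiation, WT proliferation and WT differentiation, each with the libraries numbered 7 and 8. The cells were grown as neurospheres, free-floating clusters of neural stem and progenitor cells. Proliferation lasted 7 days in medium that held heparin and the mitogens EGF and FGF2, and differentiation lasted 5 days. KO cells come from a transgenic mouse in which Cre recombinase deletes exon 3 of Yap1. An adenovirus delivered Cre under the broadly active CMV promoter, so deletion was not aimed at 1 cell type. The treatment text is the same for all samples and does not state whether WT cells received the virus or carried this allele. If they did not, loss of YAP1 cannot be told apart from effects of infection or of the modified allele. A strain, an age beyond adult and a sex are not given.

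Each KO library was set against the WT library of the same condition and number, which gave 4 pairs, and the mean KO effect over these pairs was tested. Nothing in the labels says that numbers 7 and 8 were separate cultures or animals, or that the 2 conditions of a number were. The p-values therefore rest on the spread among these libraries alone, and part of it may be technical.

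YAP1 is a transcriptional co-activator that carries no DNA-binding domain of its own and acts mainly through TEAD factors. The Hippo kinase cascade, with MST and LATS kinases, phosphorylates YAP1 and its paralog TAZ and keeps them out of the nucleus, while cell spreading and stiff surroundings favour their nuclear entry. In the central nervous system YAP1 is found mainly in neural stem cells, ependymal cells and astrocytes and is largely absent from mature neurons.

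Total counts were 18075582 to 18940989 per library, and 13046 genes were tested. Sox2 and Nes, which mark neural stem and progenitor cells, stood at 166 to 663 CPM and 172 to 1559 CPM over the 8 libraries (CPM, the read count scaled to a common library size and composition). Csf1r (microglia) and Pecam1 (endothelium) did not exceed 0.161 CPM in any library. Gfap, the intermediate filament of astrocytes, stood at 0.318 to 0.531 CPM in the proliferation libraries and at 449 to 2918 CPM in the differentiation libraries.

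Yap1 (gene ID 22601, chr9:7931999-8009565, GRCm38) was lower in KO in every pair. In proliferation the KO libraries held 27.0 and 32.7 CPM (numbers 7 and 8), against 170.5 and 150.4 CPM in WT. In differentiation they held 22.6 and 27.8 CPM, against 107 and 93.7 CPM in WT. The highest KO library lay well below the lowest WT library, and KO retained 18.6% (proliferation) and 25.1% (differentiation) of the mean WT level. Over the 4 pairs Yap1 fell by 2.21 on the log2 scale (SE 0.13, edgeR adjusted p = 0.00117). It was called under all 24 alternative settings, with log2 fold changes from -2.45 to -1.99. These settings count each pair left out under both of its libraries.

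The counts cover the whole gene, so they do not show how much of the remaining RNA lacks the deleted exon. Exon 3 of 2 Yap1 transcripts (GENCODE M21, chr9:7973796-7973911, GRCm38, minus strand) is coding along its 116 bases, which is not a multiple of 3 (remainder 2), so transcripts joined across its gap would change reading frame. Another transcript has a different exon in the third place. The sequence is shown because it holds, by its number, the exon that the labels name as the Cre target.
Yap1 exon 3: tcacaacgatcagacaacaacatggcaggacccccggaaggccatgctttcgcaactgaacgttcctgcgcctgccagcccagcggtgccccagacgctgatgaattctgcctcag

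Yap1 was 1 of few genes that passed the test. In all, 15 of 13046 genes were called (0.115%, adjusted p under 0.05), 6 higher in KO (0.046%) and 9 lower (0.069%). Higher were the Wnt ligand gene Wnt4, the BMP-family ligand gene Bmp3, the matrix gene Hmcn1 and the neural membrane or secreted protein genes Sez6l, Elfn1 and Brinp3. Lower were Yap1, the cilia regulator Foxj1, the Wnt ligand gene Wnt7b, the genes Adamts8, Fgl2 and Mfap3l of secreted or membrane proteins, and Lrrk1, Map1b and Atp2b4, which encode a kinase, a microtubule-associated protein and a calcium pump. All 15 had the same sign in all 4 pairs, as had 2184 of all tested genes (16.7%). Since the 15 were called on these pairs, this count is a description. At an unadjusted p under 0.05 there were 576 genes higher (4.42%) and 588 lower (4.51%), 8.92% in all.

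The number of calls depended on single pairs, since leaving out 1 library also takes its partner out of the comparison. The 8 fits with 1 library left out therefore cover 4 pairs. It was 6 without KO or WT proliferation 7, 3 without KO or WT proliferation 8, 32 without KO or WT differentiation 7 and 1 without KO or WT differentiation 8. Yap1, Foxj1 and Hmcn1 were the genes among the 15 that stayed called without any 1 proliferation library, and Yap1 alone did so without KO or WT differentiation 8. The sign of all 15 was the same under every alternative in which they were tested. Since all 4 pairs of these genes had the same sign and the alternatives used the same libraries, this is a description.

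**Figure D1:**
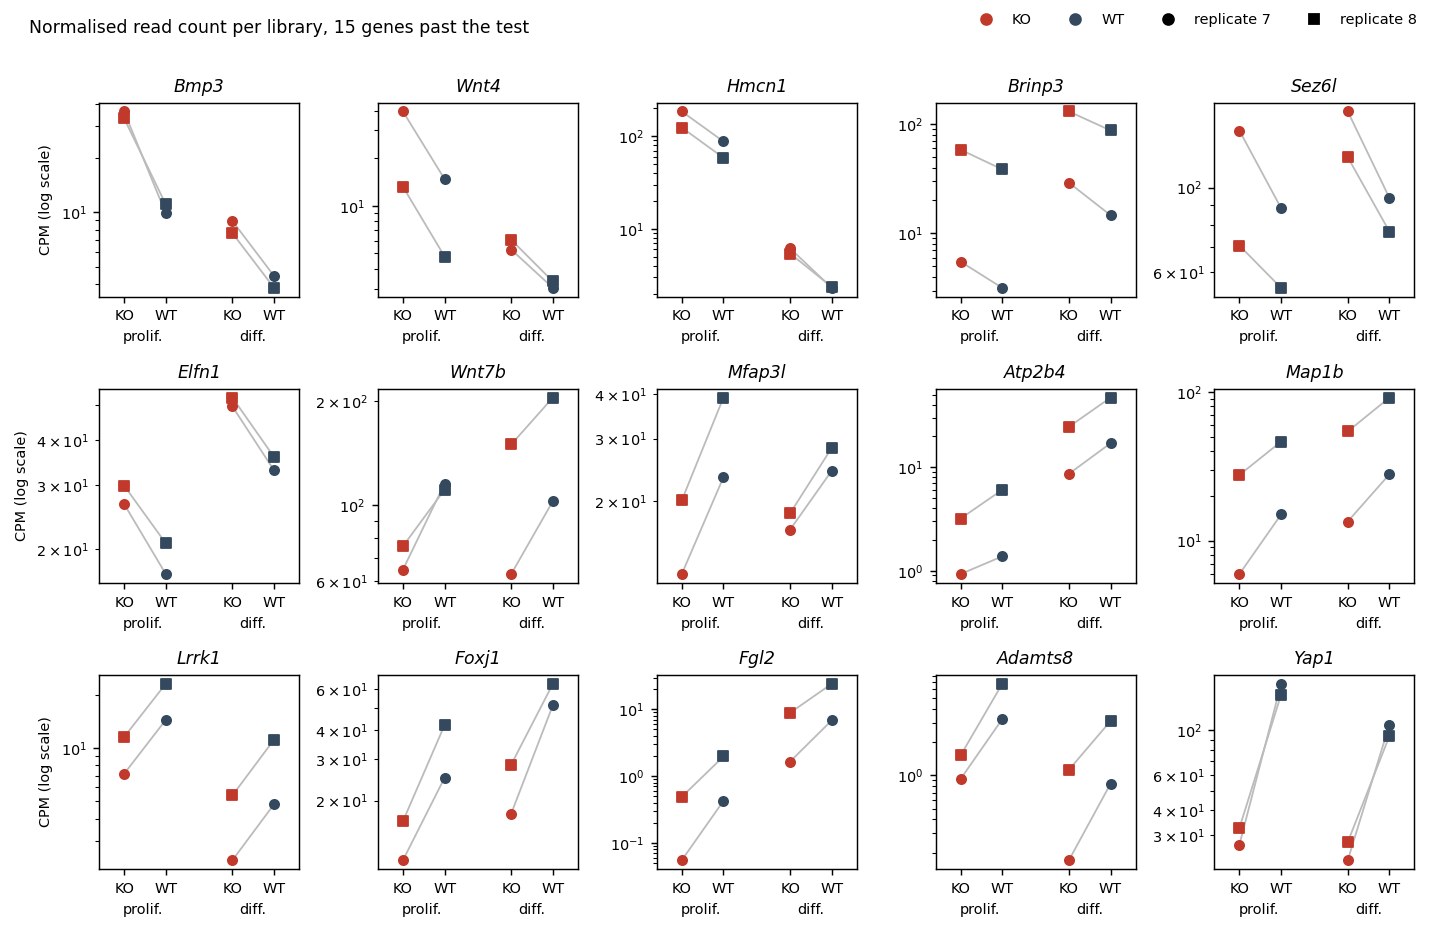
Normalised read count (CPM, log axis, own range in each panel) of the 15 called genes in all 8 libraries, KO (red) left of WT (dark grey-blue) within proliferation and differentiation. Circles are libraries numbered 7 and squares those numbered 8, and grey lines join the KO and WT library of a pair: the lines of a gene all slope the same way, while the levels of Brinp3, Map1b and Atp2b4 lay further apart between numbers than between genotypes.

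Foxj1 encodes the transcription factor that switches on the genes of motile cilia, and in the adult spinal cord it marks the ciliated ependymal cells around the central canal. Foxj1 (gene ID 15223, chr11:116330704-116335499) had 11.1 and 16.3 CPM in KO proliferation, against 25.05 and 42.1 CPM in WT proliferation. It had 17.6 and 28.5 CPM in KO differentiation, against 51.3 and 63.3 CPM in WT differentiation. KO and WT did not overlap in either condition, and KO retained 40.8% (proliferation) and 40.2% (differentiation) of the mean WT level. Foxj1 fell by 1.31 on the log2 scale (SE 0.095, edgeR adjusted p = 0.00276), with -1.17, -1.36, -1.54 and -1.15 in the pairs proliferation 7, proliferation 8, differentiation 7 and differentiation 8. With 1 library left out, its edgeR adjusted p was at most 0.0616.

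None of the other ependymal and motile cilia genes tested passed. Of 43 listed, 39 were in the table, 16 were tested and 3 had no count in any library. Of the 16, Foxj1 was the only call. With 0.115% called over all genes, the lack of other calls says little about a list of this size. At an unadjusted p under 0.05 in edgeR, 5 were lower (Foxj1 among them) and 0 higher. Over all genes these shares were 4.51% and 4.42%. Of the 16, 12 had a log2 fold change below 0 and 4 above 0, and the median was -0.32, against 0.003 over all tested genes. The list summed to 112 and 118 CPM in KO proliferation, against 128 and 155 CPM in WT, and to 206 and 144 CPM in KO differentiation, against 203 and 192 CPM in WT, so the sums overlapped in differentiation. Rfx2, a transcription factor of ciliated cells, stood at 4.10 to 14.1 CPM in KO and 5.19 to 19.8 CPM in WT (log2 fold change -0.55, edgeR adjusted p = 0.212). Cfap44, an axoneme gene, did not exceed 1.45 CPM (log2 fold change -1.44, edgeR adjusted p = 0.231). In bulk RNA, fewer cells of a type and less RNA per cell cannot be told apart.

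Genes of 3 secreted ligands were called, with opposite directions for the Wnt ligands. Wnt4 (gene ID 22417, chr4:137277635-137299501), a Wnt ligand known from kidney and gonad development, had 39.6 and 13.2 CPM in KO proliferation, against 14.8 and 4.78 CPM in WT. It had 5.29 and 6.10 CPM in KO differentiation, against 3.03 and 3.33 CPM in WT. Within each number KO was the higher library, although KO proliferation 8 lay below WT proliferation 7. Wnt4 rose by 1.19 on the log2 scale (SE 0.15, edgeR adjusted p = 0.0468).

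Wnt7b (gene ID 22422, chr15:85535437-85581821), a ligand best known for its role in brain vessel and lung development, went the other way. It had 64.9 and 75.9 CPM in KO proliferation, against 115 and 111 CPM in WT proliferation. It had 63.0 and 149.7 CPM in KO differentiation, against 103 and 205 CPM in WT differentiation. Each KO library lay below its WT partner, with an overlap across numbers in differentiation. Wnt7b fell by 0.63 on the log2 scale (SE 0.080, edgeR adjusted p = 0.0468), and the 4 pair differences lay between -0.83 and -0.45.

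Bmp3 (gene ID 110075, chr5:98854415-98884053) encodes a member of the BMP family that antagonises other BMPs in bone. It had 36.2 and 33.1 CPM in KO proliferation, against 9.85 and 11.1 CPM in WT proliferation. In differentiation 8.93 and 7.66 CPM in KO stood against 4.43 and 3.81 CPM in WT. No KO library overlapped a WT library of its condition. Bmp3 rose by 1.43 on the log2 scale (SE 0.16, edgeR adjusted p = 0.0398), and its pair differences were 1.86 and 1.57 in proliferation and 0.99 in both differentiation pairs. The test of a difference between conditions gave an edgeR adjusted p = 0.199.

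Genes of secreted and membrane proteins made up the next group. Hmcn1 (gene ID 545370, chr1:150562500-150993652) encodes hemicentin 1, a very large extracellular matrix protein. It had 185 and 124 CPM in KO proliferation, against 87.7 and 58.4 CPM in WT proliferation. In differentiation it was far lower in both genotypes, with 6.15 and 5.41 CPM in KO and 2.30 and 2.36 CPM in WT. KO stood above WT without overlap at both levels, 2.11-fold in proliferation and 2.48-fold in differentiation by the ratio of means. Hmcn1 rose by 1.14 on the log2 scale (SE 0.088, edgeR adjusted p = 0.00297), and the 4 pairs lay between 1.08 and 1.38.

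Adamts8 (gene ID 30806, chr9:30940236-30963838), a secreted metalloprotease, was a gene of low counts. KO libraries had 0.929 and 1.52 CPM in proliferation and 0.171 and 1.12 CPM in differentiation. WT libraries had 3.23 and 6.75 CPM in proliferation and 0.842 and 3.11 CPM in differentiation. The lowest KO library rested on 3 counts, and KO and WT overlapped across numbers in differentiation. Adamts8 fell by 1.86 on the log2 scale (SE 0.24, edgeR adjusted p = 0.0468).

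Fgl2 (gene ID 14190, chr5:21372673-21378386), a fibrinogen-like protein that occurs as a membrane-bound prothrombinase and as a secreted immune regulator, was mainly found in differentiation. There it had 1.65 and 8.89 CPM in KO, against 6.85 and 24.2 CPM in WT. In proliferation it had 0.055 and 0.487 CPM in KO, against 0.424 and 1.97 CPM in WT, and the lowest of these values rested on 1 count. Number 8 held more than number 7 in every group, so that KO and WT overlapped across numbers in both conditions. Fgl2 fell by 1.77 on the log2 scale (SE 0.21, edgeR adjusted p = 0.0398).

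Mfap3l (gene ID 71306, chr8:60632825-60676731) encodes a membrane protein of the immunoglobulin superfamily. It had 12.5 and 20.1 CPM in KO proliferation, against 23.4 and 39.2 CPM in WT proliferation. It had 16.6 and 18.5 CPM in KO differentiation, against 24.4 and 28.3 CPM in WT differentiation. The groups did not overlap. Mfap3l fell by 0.76 on the log2 scale (SE 0.10) and stood closest to the threshold of the called genes (edgeR adjusted p = 0.0495), which it passed no longer with a stricter filter on low counts (edgeR adjusted p = 0.0524).

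The other 3 genes that rose encode proteins known from neurons. Sez6l (gene ID 56747, chr5:112419151-112578535), a transmembrane protein related to the seizure protein SEZ6, had 141 and 70.5 CPM in KO proliferation, against 88.4 and 54.6 CPM in WT. In differentiation 158 and 120.2 CPM in KO stood against 94.0 and 76.7 CPM in WT without overlap, while the proliferation libraries overlapped across numbers. Sez6l rose by 0.61 on the log2 scale (SE 0.080, edgeR adjusted p = 0.0468).

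Elfn1 (gene ID 243312, chr5:139907591-139974725) encodes a postsynaptic protein that recruits metabotropic glutamate receptors across the synapse. KO proliferation had 26.6 and 29.9 CPM, against 17.1 and 20.7 CPM in WT proliferation. KO differentiation had 49.4 and 52.3 CPM, against 32.9 and 35.8 CPM in WT differentiation. The groups did not overlap, and the 4 pairs lay between 0.53 and 0.64. Its log2 fold change of 0.57 was the smallest in size of the 15 (SE 0.076, edgeR adjusted p = 0.0472).

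Brinp3 (gene ID 215378, chr1:146494760-146902472), of a family named for induction by BMP and retinoic acid in neural tissue, differed mainly between numbers. KO proliferation had 5.52 and 58.2 CPM, against 3.18 and 38.5 CPM in WT proliferation, and KO differentiation had 29.1 and 130.3 CPM, against 14.6 and 87.3 CPM in WT differentiation. KO was the higher library of each pair by 0.58 to 0.98 on the log2 scale. Brinp3 rose by 0.72 on the log2 scale (SE 0.096, edgeR adjusted p = 0.0472), and it was not called with a stricter filter on low counts (edgeR adjusted p = 0.0524).

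A kinase, a microtubule-associated protein and a calcium pump fell. Lrrk1 (gene ID 233328, chr7:66258745-66388341), a leucine-rich repeat kinase known from osteoclasts, had 7.16 and 11.5 CPM in KO proliferation, against 14.4 and 23.0 CPM in WT. In differentiation 2.33 and 5.41 CPM in KO stood against 4.83 and 11.2 CPM in WT. Its 4 pairs differed little, between -1.03 and -0.99, and Lrrk1 fell by 1.02 on the log2 scale (SE 0.11, edgeR adjusted p = 0.0398).

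Map1b (gene ID 17755, chr13:99421446-99516602), which binds microtubules in growing neurites, had 5.95 and 27.6 CPM in KO proliferation, against 14.99 and 46.3 CPM in WT. In differentiation it had 13.4 and 54.1 CPM in KO, against 27.9 and 91.4 CPM in WT. The genotypes overlapped across numbers in both conditions. Map1b fell by 0.94 on the log2 scale (SE 0.11, edgeR adjusted p = 0.0398).

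Atp2b4 (gene ID 381290, chr1:133702674-133801059), which pumps calcium out of the cell, had 0.929 and 3.196 CPM in KO proliferation, against 1.38 and 6.06 CPM in WT. KO differentiation had 8.65 and 24.7 CPM, against 17.1 and 47.2 CPM in WT differentiation. As with Map1b, the genotypes overlapped across numbers while each pair had the same sign. Atp2b4 fell by 0.91 on the log2 scale (SE 0.12, edgeR adjusted p = 0.0468).

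**Figure D2:**
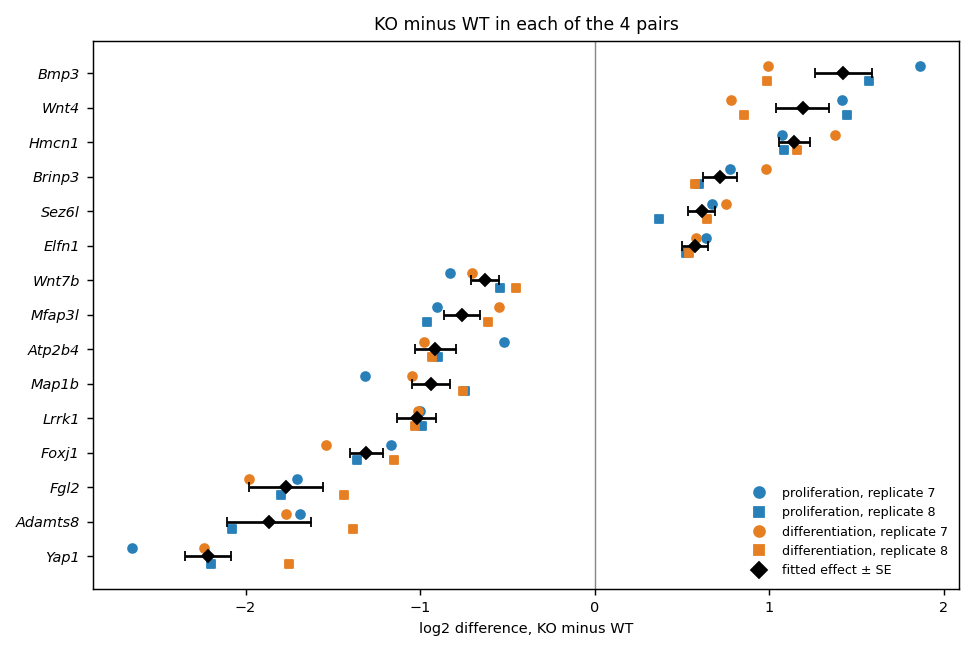
Log2 difference of KO minus WT in each of the 4 pairs (blue proliferation, orange differentiation, circles number 7, squares number 8) for the 15 called genes, with the fitted log2 fold change and its SE (black). Every point of a gene lies on the same side of 0, from Yap1 (-2.21) to Bmp3 (1.43), and the proliferation points of Bmp3 and Wnt4 lie above their differentiation points.

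Of the 15 genes, 6 had no overlap between KO and WT in either condition (Yap1, Foxj1, Hmcn1, Bmp3, Elfn1 and Mfap3l), and 9 overlapped across numbers in at least 1 condition. Over all tested genes 514 (3.94%) had no overlap in either condition and the same direction in both, and since the 15 were called on these libraries the count of 6 is a description. Without the pairing by number, edgeR called 1 gene, Yap1. The levels themselves spanned a wide range. By the authors' TPM, which corrects for transcript length, the highest of the 15 in KO proliferation was Sez6l in number 7 (46.2 TPM) and Wnt7b in number 8 (47.2 TPM). In KO differentiation it was Sez6l in number 7 (51.9 TPM) and Brinp3 in number 8 (101.5 TPM). In WT proliferation it was Yap1 in both numbers (84.5 and 79.6 TPM), and in WT differentiation Wnt7b in both (63.9 and 132 TPM).

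TEAD factors bind the core GGAATG, read as CATTCC on the other strand. It was searched for on both strands of the RefSeq promoter windows (GRCm38.p6, 250 bases before to 50 after a start), where 11 of the 15 genes had at least 1 window. The core was found in a window of 5 of these 11 genes (45.5%), which were Hmcn1, Brinp3, Elfn1, Atp2b4 and Yap1 itself. Over all tested genes with a window it was found in 1480 of 10331 (14.3%), and over all 32851 windows in 14.7%. These counts are a description of letters in a short window and say nothing of binding. Windows of a matrix gene that rose (Hmcn1), a calcium pump gene that fell (Atp2b4) and a synaptic gene that rose (Elfn1) are printed with the core in capitals.
Hmcn1 promoter, chr1:150993386-150993685, minus strand, core at -242 from the start: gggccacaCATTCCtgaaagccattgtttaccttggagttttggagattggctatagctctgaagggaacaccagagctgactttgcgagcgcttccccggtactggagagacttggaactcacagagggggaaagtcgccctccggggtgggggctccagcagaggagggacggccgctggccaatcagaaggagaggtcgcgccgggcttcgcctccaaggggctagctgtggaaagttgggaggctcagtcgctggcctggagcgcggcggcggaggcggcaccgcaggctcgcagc
Atp2b4 promoter, chr1:133753698-133753997, minus strand, core at -192 from the start: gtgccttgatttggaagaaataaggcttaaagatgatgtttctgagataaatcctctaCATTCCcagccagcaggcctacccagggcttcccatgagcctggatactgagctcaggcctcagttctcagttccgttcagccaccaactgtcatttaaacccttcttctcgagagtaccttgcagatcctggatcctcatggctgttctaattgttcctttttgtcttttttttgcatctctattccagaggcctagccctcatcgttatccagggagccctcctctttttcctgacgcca
Elfn1 promoter, chr5:139907616-139907915, plus strand, core at -133 from the start: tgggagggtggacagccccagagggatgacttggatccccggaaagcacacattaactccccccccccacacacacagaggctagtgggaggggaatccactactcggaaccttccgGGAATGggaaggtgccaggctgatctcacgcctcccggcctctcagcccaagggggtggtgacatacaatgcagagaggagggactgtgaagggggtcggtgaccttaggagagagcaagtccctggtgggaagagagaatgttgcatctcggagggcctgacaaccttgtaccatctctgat

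A larger set lay just beyond the threshold. At an adjusted p under 0.1 there were 128 genes (0.981%), 57 higher (0.437%) and 71 lower (0.544%), of which 113 had an adjusted p from 0.0618 to 0.0993. Of these 113, 106 had the same sign in all 4 pairs and 7 did not, a description of genes picked by their p in these pairs. Gfpt2 and Glipr2 were among the nearest and were chosen here for their place next to the threshold. Gfpt2, an enzyme of hexosamine synthesis, had 124 and 97.4 CPM in KO proliferation, against 90.4 and 60.6 CPM in WT. Differentiation libraries held 14.9 and 15.3 CPM in KO, against 7.74 and 9.98 CPM in WT (log2 fold change 0.65, edgeR adjusted p = 0.0618). Glipr2 had 1.47 and 2.11 CPM in KO proliferation, against 1.85 and 3.83 CPM in WT. The levels in differentiation were 14.1 and 17.5 CPM in KO, against 37.9 and 46.5 CPM in WT (log2 fold change -1.19, edgeR adjusted p = 0.0618). In both genes KO and WT differentiation libraries did not overlap.

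Among Hippo pathway components, 1 of 34 tested members was called, against 0.115% of all genes, and this was Yap1, the targeted gene itself. The median of the list was -0.06, with 14 members above 0 and 20 below. Wwtr1, which encodes TAZ (gene ID 97064, chr3:57455644-57575910), had 98.6 and 107 CPM in KO proliferation, against 92.5 and 101 CPM in WT. In differentiation 68.4 and 75.3 CPM in KO stood against 114 and 97.3 CPM in WT. KO and WT overlapped in proliferation and did not in differentiation, and the common effect did not pass (log2 fold change -0.23, SE 0.13, edgeR adjusted p = 0.746). The test of a difference between conditions for Wwtr1 gave an edgeR adjusted p = 0.12.

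The scaffold gene Wwc2, which promotes LATS activity, had 26.2 and 28.7 CPM in KO proliferation, against 36.6 and 38.1 CPM in WT. In differentiation the values were 48.1 and 46.6 CPM in KO, against 68.6 and 56.9 CPM in WT. It did not pass (log2 fold change -0.42, edgeR adjusted p = 0.0811), although the groups did not overlap. The protocadherin gene Fat4 had a log2 fold change of 0.44 (edgeR adjusted p = 0.105). The TEAD genes, named here for their role, had log2 fold changes of 0.08 (Tead1), -0.11 (Tead2), -0.07 (Tead3) and -0.45 (Tead4), with edgeR adjusted p from 0.848 to 0.985.

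Of 30 tested targets of YAP, TAZ and TEAD, 7 had an unadjusted p under 0.05 in edgeR, 1 higher and 6 lower, against 8.92% of all genes (4.42% higher, 4.51% lower). The median was -0.05, with 13 above 0 and 17 below. After adjustment 0 passed, which with 0.115% called over all genes says little about a list of this size. Arhgef17, a guanine nucleotide exchange factor, came closest, with 7.16 and 10.6 CPM in KO proliferation, against 9.58 and 15.3 CPM in WT. In differentiation it had 10.1 and 16.1 CPM in KO, against 23.5 and 33.3 CPM in WT (log2 fold change -0.82, edgeR adjusted p = 0.0811). F3, the gene of tissue factor, had a log2 fold change of 0.41 (edgeR adjusted p = 0.238) and Dlc1, a GTPase-activating protein, one of -0.50 (edgeR adjusted p = 0.271). Ccn1 and Amotl2, named here as often used readouts, had log2 fold changes of -0.44 and 0.09 (edgeR adjusted p = 0.432 and 0.923).

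In the Wnt pathway, 2 of 35 tested members were called, Wnt4 and Wnt7b, against 0.115% of all genes, and the median was 0.02. Nkd1, an inhibitor that Wnt signalling itself induces, had 125 and 77.6 CPM in KO proliferation, against 90.2 and 54.7 CPM in WT. Differentiation libraries held 40.1 and 31.4 CPM in KO, against 30.5 and 24.1 CPM in WT (log2 fold change 0.44, edgeR adjusted p = 0.0618). Its pair differences lay between 0.38 and 0.50. Lef1, a transcription factor of the pathway, and the receptor gene Fzd3 lay in the same range of adjusted p (log2 fold changes 1.75 and -0.53, edgeR adjusted p = 0.0771 and 0.0665) and were picked after their values were seen. The pathway therefore held members on either side of 0 among its smallest p-values. Lef1 did not exceed 1.42 CPM in differentiation. In proliferation it had 9.72 and 1.19 CPM in KO, against 3.44 and 0.266 CPM in WT. KO 8 lay below WT 7 in both conditions.

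Of 41 tested BMP and TGF-beta genes 1 was called, Bmp3, against 0.115% of all genes, and the median was -0.05. Bmp7, another ligand of the family, had 51.7 and 62.0 CPM in KO proliferation, against 37.4 and 40.8 CPM in WT. The levels in differentiation were 10.02 and 5.19 CPM in KO, against 5.61 and 3.33 CPM in WT (log2 fold change 0.61, edgeR adjusted p = 0.0618). The receptor gene Bmpr1b had 4.10 and 20.3 CPM in KO proliferation, against 7.25 and 30.0 CPM in WT. In differentiation the values were 90.5 and 168 CPM in KO, against 153 and 193 CPM in WT (log2 fold change -0.55, edgeR adjusted p = 0.0962). Both had the same sign in all 4 pairs, and neither passed.

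In the Notch pathway (27 tested, median -0.03) and among feedback targets of ERK (20 tested, median 0.13) no gene passed in edgeR. The share called over all genes was 0.115%. The Notch ligand gene Jag1 had a log2 fold change of 0.56 (edgeR adjusted p = 0.0722) and Dtx4, which encodes a Deltex ubiquitin ligase, one of -0.60 (edgeR adjusted p = 0.0618). Etv5, a transcription factor induced by FGF signalling, had one of 0.45 (edgeR adjusted p = 0.0937). Unadjusted p under 0.05 was reached by 4 Notch genes and by 5 ERK targets, all 5 of them above 0, against 8.92% of all genes in either direction and 4.42% above 0.

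Genes of the actin cytoskeleton, whose tension favours nuclear YAP1, showed no call among 36 tested, against 0.115% of all genes. The median was -0.09, with 11 above 0 and 25 below. At an unadjusted p under 0.05 in edgeR, 9 were lower and 0 higher, against 4.51% lower and 4.42% higher over all genes. Myl9, a regulatory light chain of myosin, had 0.382 and 1.35 CPM in KO proliferation, against 1.27 and 2.66 CPM in WT. In differentiation it had 0.341 and 3.05 CPM in KO, against 1.63 and 9.39 CPM in WT (log2 fold change -1.54, edgeR adjusted p = 0.0651). Anxa2, a membrane protein that binds actin, had 41.3 and 37.8 CPM in KO proliferation, against 59.7 and 53.5 CPM in WT. Differentiation libraries held 60.9 and 39.3 CPM in KO, against 91.1 and 93.6 CPM in WT (log2 fold change -0.72, edgeR adjusted p = 0.078). For Anxa2 no KO library overlapped a WT library of its condition.

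Integrins and focal adhesion genes (32 tested, median -0.03), mechanically gated channels (10 tested, median -0.03) and extracellular matrix genes on the list (44 tested, median 0.09) also held no call. With 0.115% called over all genes, this says little about lists of these sizes. Kcnk2, a stretch-sensitive potassium channel, had a log2 fold change of -0.82 (edgeR adjusted p = 0.0855), and Piezo1 one of -0.33 (edgeR adjusted p = 0.599), with -0.72 and -0.83 in the differentiation pairs and 0.07 and -0.10 in the proliferation pairs. Sparcl1, a secreted matrix-associated protein of astrocytes, had 891 and 528 CPM in KO proliferation, against 496 and 260.4 CPM in WT. The levels in differentiation were 13183 and 4837 CPM in KO, against 7535 and 4313 CPM in WT (log2 fold change 0.71, edgeR adjusted p = 0.0945).

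**Figure D3:**
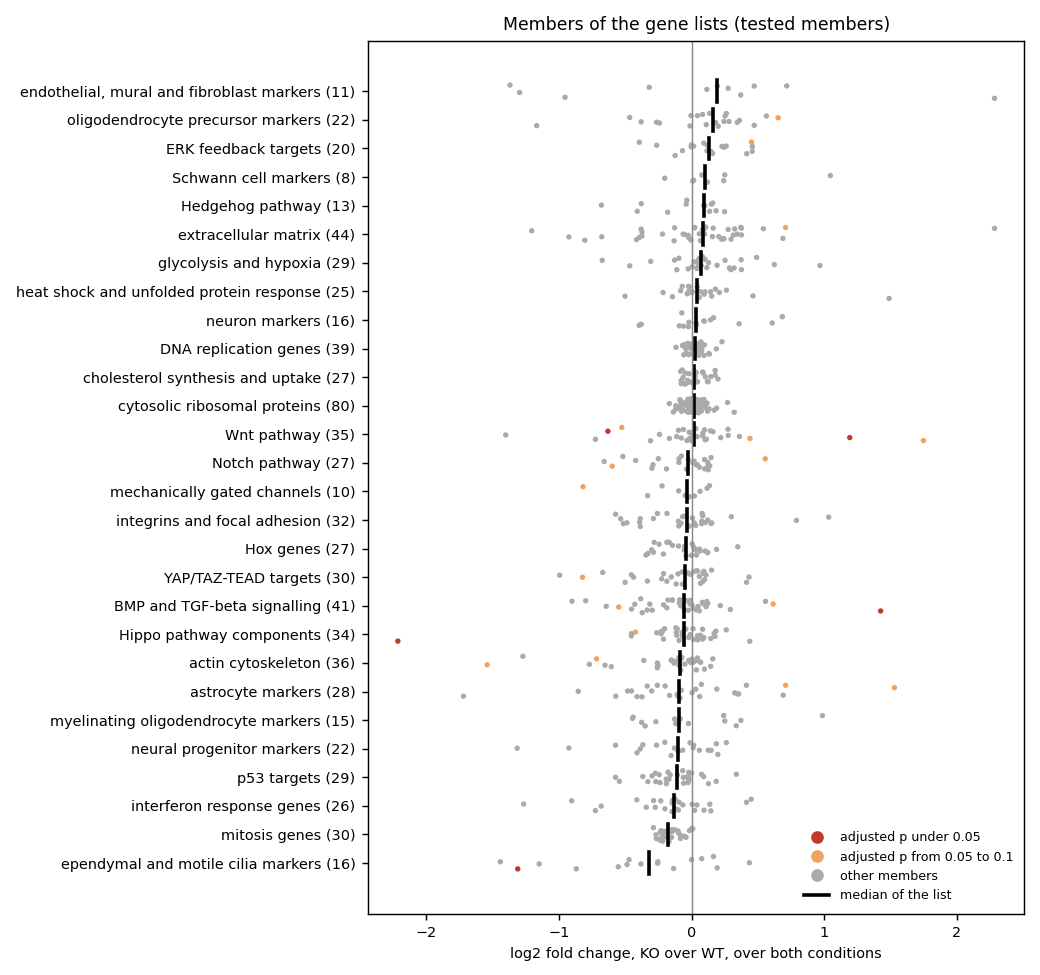
Fitted log2 fold change of KO over WT for each tested member of the gene lists with at least 3 tested members (points, number tested in brackets) and the median of each list (black bar). Red points are called genes and orange ones have an adjusted p from 0.05 to 0.1, while medians lie between -0.32 (ependymal and motile cilia markers) and 0.20 (endothelial, mural and fibroblast markers).

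Markers of other cell types held no call except Foxj1, while 0.115% of all genes were called. Of 22 oligodendrocyte precursor markers tested, 15 lay above 0 and 7 below, with a median of 0.16, and the list summed to 17465 and 16550 CPM in KO proliferation, against 14094 and 13398 CPM in WT, and to 10311 and 10526 CPM in KO differentiation, against 9813 and 9099 CPM in WT. These sums did not overlap in either condition. By pair, the median of the list was 0.25 and 0.20 in proliferation and -0.01 and 0.10 in differentiation (numbers 7 and 8). The part of these markers in the differences of other genes was not tested. Cspg4, the proteoglycan NG2, came closest, with 191 and 194 CPM in KO proliferation, against 99.0 and 108 CPM in WT. In differentiation the values were 71.5 and 103 CPM in KO, against 53.4 and 79.0 CPM in WT (log2 fold change 0.65, edgeR adjusted p = 0.0651). Pdgfra, the PDGF receptor of these cells, had a log2 fold change of 0.47 (edgeR adjusted p = 0.101). Sox10, the transcription factor of the lineage, did not exceed 0.642 CPM in any library.

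Astrocyte markers (28 tested, median -0.09) had members on both sides. Gpc5, a glypican of astrocytes, had 0.765 and 0.65 CPM in KO proliferation, against 0.318 and 0.213 CPM in WT. In differentiation it had 7.85 and 3.11 CPM in KO, against 2.47 and 1.13 CPM in WT (log2 fold change 1.53, edgeR adjusted p = 0.0618). Aqp4, the water channel of astrocyte end feet, had 222 and 1314 CPM in KO differentiation, against 587 and 1712 CPM in WT, and at most 4.04 CPM in proliferation (log2 fold change -0.85, edgeR adjusted p = 0.11). Gfap had 449 and 1279 CPM in KO differentiation, against 2918 and 2503 CPM in WT (log2 fold change -1.72, edgeR adjusted p = 0.11). The mean of its 4 pair differences was -0.96, and its proliferation libraries held at most 0.531 CPM. None of these genes passed.

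Neural progenitor markers had a median of -0.10 (22 tested). Vim, the intermediate filament vimentin, had 1364 and 1835 CPM in KO proliferation, against 1700.2 and 2169 CPM in WT. Differentiation libraries held 1165 and 1055 CPM in KO, against 1553 and 1487 CPM in WT (log2 fold change -0.37, edgeR adjusted p = 0.125). Markers of myelinating oligodendrocytes (15 tested, median -0.10), neurons (16 tested, median 0.04), endothelial, mural and fibroblast cells (11 tested, median 0.20) and Schwann cells (8 tested, median 0.10) held no call either. Over all genes 0.115% were called, so the lack of calls says little about such short lists. Of 20 microglia and macrophage markers listed, 2 had counts enough to be tested, and 0 of these were called in edgeR, with 0 at an unadjusted p under 0.05 (8.92% of all genes).

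Mitosis genes lay below 0 nearly throughout, though none passed, against 0.115% of all genes. Of 30 tested, 28 lay below 0 and 2 above, the median was -0.17, and 12 had the same sign in all 4 pairs. Over all tested genes 51.1% lay above 0 and 16.7% had the same sign in all 4 pairs. The list summed to 4960 and 5180 CPM in KO proliferation, against 5303 and 5639 CPM in WT, and to 36.6 and 42.9 CPM in KO differentiation, against 48.0 and 51.4 CPM in WT. Cenpf, a kinetochore protein of dividing cells, had the smallest p of the list (log2 fold change -0.22, edgeR adjusted p = 0.48). In differentiation Cenpf did not exceed 0.965 CPM, so those pairs rest on low counts. DNA replication genes had a median of 0.02 over 39 tested.

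In several lists the medians of the conditions lay on opposite sides of 0. Cytosolic ribosomal protein genes (80 tested) had medians of -0.26 and -0.06 in the proliferation pairs and 0.26 and 0.10 in the differentiation pairs, and 0.02 over both. Cholesterol synthesis genes (27 tested) had -0.14 and -0.25 in proliferation and 0.34 and 0.19 in differentiation. Interferon response genes (26 tested) had 0.09 and 0.07 in proliferation and -0.26 and -0.41 in differentiation. The difference between conditions was not tested for lists. Among their members, Ifitm3, an interferon-induced membrane protein, had 58.8 and 73.4 CPM in KO proliferation, against 74.3 and 89.7 CPM in WT. The levels in differentiation were 68.0 and 67.4 CPM in KO, against 125 and 156 CPM in WT (log2 fold change -0.68, edgeR adjusted p = 0.118).

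The remaining lists held no call, which with 0.115% called over all genes says little about lists of this size. Their medians were -0.11 for p53 targets (29 tested, 6 above 0 and 23 below), -0.04 for Hox genes (27 tested), 0.09 for Hedgehog genes (13 tested), 0.07 for glycolysis and hypoxia genes (29 tested) and 0.04 for heat shock and unfolded protein genes (25 tested). Around Yap1 itself, within 5 Mb on chromosome 9, 18 genes were tested and 0 were called in edgeR, with 3 at an unadjusted p under 0.05 (8.92% of all genes) and a median of -0.002. Of these 3, named after their values were seen, Pdgfd had a log2 fold change of 1.41 (edgeR adjusted p = 0.0665), Casp1 one of 1.12 and Gria4 one of 0.43. All 3 differed more between numbers 7 and 8 than between genotypes.

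The KO effects of the 15 genes were also compared between conditions. The difference itself passed for 38 of 13046 genes (0.291%), and none of the 15 was among them. The fit that called the 15 counted such a difference as spread, which disfavours genes that have one. The absence of the 15 is therefore a description. At an unadjusted p under 0.05 there were 1916 genes (14.7%), and Bmp3 and Wnt4 were among these (edgeR adjusted p = 0.199 and 0.284). A p that misses the threshold does not show that both conditions responded alike. The count of 38 became 1713 without KO differentiation 8, 1705 without WT differentiation 8 and 117 to 179 without any 1 other library. Each of these fits with 1 library left out kept 1 pair in the condition of that library and 1 residual degree of freedom. The KO effect differed between numbers 7 and 8 for 0 genes (0%) in edgeR, with 233 (1.79%) at an unadjusted p under 0.05 and 4 calls in DESeq2.

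**Figure D4:**
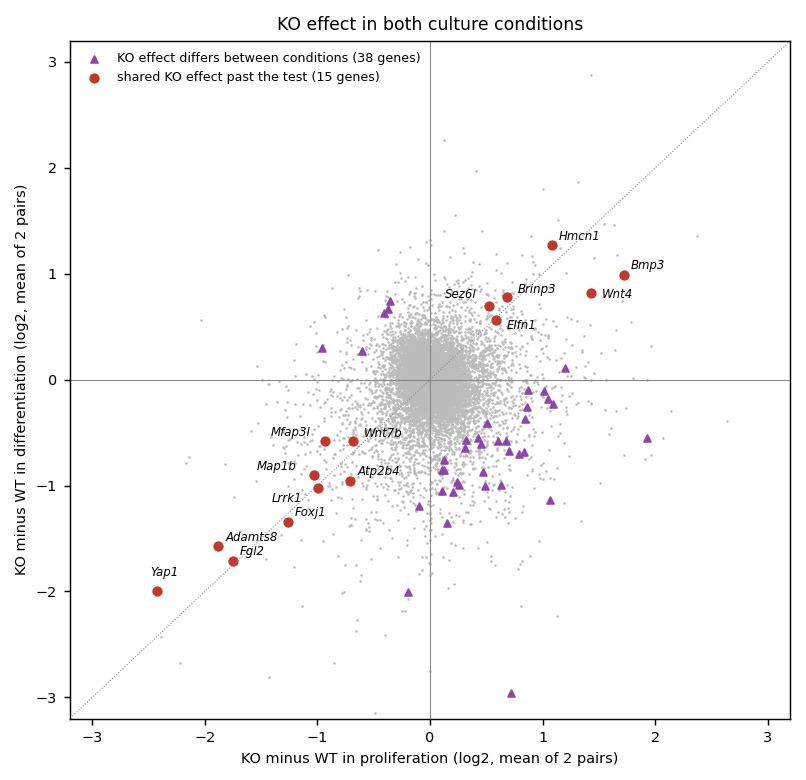
Log2 difference of KO minus WT for all tested genes, in proliferation (x axis) and differentiation (y axis), each the mean of 2 pairs, with the 15 called genes in red and the 38 genes whose KO effect differed between conditions as purple triangles. The red points lie in the quadrants of equal sign near the dotted line of equal effect, Bmp3 and Wnt4 below it, and 2 genes lie outside the axes. The red genes were called on their mean effect over both conditions, so their place is a description.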

How the data were processed

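The deposited table holds estimated counts per gene, which the authors made from stranded poly(A) libraries sequenced on DNBSEQ, per the labels' protocols. Its TPM values are the authors' length-scaled levels, per the file headers, and were used only to compare levels between genes. The sources used here name no aligner or counting tool and do not say whether counting used the strand, so reads of overlapping or antisense genes may not have been separated. The submitters' processing notes name GRCm39. Gene starts, however, were identical to RefSeq GRCm38.p6 for 85.4% of 16878 genes found there by gene ID, and coordinates are printed as GRCm38. The table also holds 12 per-library columns of 4 libraries that match no label and were not used, and 12 of the 20 labelled samples have no analysis here. 1 line without a gene was left out.

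Estimated counts were rounded and 13046 of 16927 listed genes passed filterByExpr over the 4 groups. Counts were scaled by TMM and fitted with edgeR 4.0.16 (R 4.3.3, robust quasi-likelihood F-test) with the 4 combinations of condition and replicate number as blocks and genotype as a term, which leaves 3 residual degrees of freedom before edgeR's sharing of information over genes. P-values were adjusted by Benjamini-Hochberg over all tested genes, and a gene was called at an adjusted p under 0.05. SE was derived from the log2 fold change and F. Pair differences use log2 CPM, to which edgeR added a prior count of 2. With 4 pairs a two-sided permutation test of 1 gene cannot go below 0.125, so none was used. The steps were tested on simulated data.

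Libraries of the same number deviated together from their group means (correlations of 0.538 to 0.784 between groups over genes), so numbers were treated as pairing KO with WT. The KO minus WT differences of the pairs of a condition correlated over genes by 0.335 (proliferation) and 0.288 (differentiation). Between pairs of different conditions these correlations were only 0.034 to 0.124. Libraries of 1 group differed by more than counting noise (chi-square per degree of freedom 33.8 to 63.6), and none was counted as a repeat of another. Intervals for counting error were not computed, since replicate spread was larger.

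The text names the called genes, Wwtr1, from each list up to 3 tested members by lowest p, the genes next to the threshold, and others said to be chosen later. Some items are not reported here. The members, lists and tests were chosen with earlier results of these data known. The alternatives covered normalization, filters, DESeq2 1.42.0, limma 3.58.1, the block, each condition or number alone, and each library left out.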

Additional observations from a re-analysis of the deposited data

Results flagged for a closer look

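In 9 of 91 named genes 1 of the 4 pair differences (KO minus WT, log2) lay apart from the other 3 by Dixon's criterion for 4 values, which flags about 1 in 20 by chance. For the calcium pump gene Atp2b4, the only called gene among them, this was proliferation 7 at -0.52, with the other pairs between -0.98 and -0.90. Differentiation 7 lay apart for the cilia transcription factor gene Rfx2 (-1.01), the paxillin gene Pxn (-0.83), the potassium channel gene Kcnk2 (-1.35), Hoxb3 (-0.75) and Trib3, a gene of the stress response (2.61). Differentiation 8 lay apart for the spindle gene Nusap1 (-0.75), the annexin gene Anxa2 (-1.25) and the ERK feedback gene Dusp4 (-0.16).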

How the results depend on the processing

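All 15 called genes kept their sign under every alternative that tested them (Fgl2 was not tested in proliferation alone). Their signs were equal in all 4 pairs and the alternatives used the same libraries, so a change of sign was hardly possible. The number of calls moved widely. Against 15 calls, it was 13 with a stricter filter (at least 1 CPM in 4 libraries), without Mfap3l and Brinp3. All 15 stayed called with no filter, in DESeq2 and in limma-voom without or with quality weights. They also did with the counts of both conditions summed, a fit with 1 residual degree of freedom that weights each gene to its higher condition. An estimated correlation within genotype and number kept all 15 as well. That correlation was negative (-0.53), which narrows the SE of the KO effect, so this setting was not a stricter one. The number of calls was 83 with no filter, 198 in DESeq2, 62 in limma-voom and 181 in limma-voom with quality weights. It was 256 with the counts of both conditions summed and 539 with this correlation. It was 6 with number and condition as additive terms, 650 in proliferation alone, 583 in differentiation alone, 152 in number 7 alone and 6 in number 8 alone, the last 4 with 1 residual degree of freedom. Without the replicate block it was 1 (Yap1), and for the difference between conditions 0 against 38. Leaving out 1 library gave 1 to 32 calls, with 2 residual degrees of freedom. The difference between conditions was called for 141 genes with no filter, 157 in DESeq2, 21 in limma-voom, 75 with quality weights, and 117 to 1713 with 1 library left out. The difference between numbers was called for 0 genes in edgeR, 4 in DESeq2, and 1 to 17 with 1 library left out. With 1 library left out, the fits of either difference had 1 residual degree of freedom. The difference between numbers was not fitted without the replicate block.

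The log2 fold change of Wwtr1 was 0.094 in proliferation alone and -0.56 in differentiation alone, where it was called (adjusted p = 0.00194 in edgeR), against -0.23 over both. Signs of uncalled genes turned in proliferation alone for Map2 (-0.011), Cd68 (0.11), Egr2 (0.013) and Insig1 (-0.057), and for Cd68 in number 8 alone (0.30). With 1 library left out Cd68 lay between -0.45 and 0.019. Of the other values of named genes, 1818 kept direction and side of the threshold, 177 passed it and 120 no longer did. The cause of these shifts was not tested. Genes of a few counts, such as Fgl2 and Adamts8 in some libraries, are limited by depth.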
